A study of Mus musculus with 2 samples.

Results

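The amino acid stress response is described here through 10 genes, *Atf4*, *Ddit3*, *Trib3*, *Chac1*, *Slc7a5*, *Slc3a2*, *Asns*, *Psat1*, *Phgdh* and *Shmt2*, out of 32285 genes in the count matrices. They were taken by name because *Asns* led the deepest cycling muscle stem cells (MuSCs) in earlier results from these data, so the difference between deep and other cycling cells is given as a description. Every one of the 10 had at least 1 unique molecular identifier (UMI, a tag that marks 1 captured transcript) in both libraries. Cells were sorted from plantaris muscle of 26 weeks old Pax7rtTA; TRE-H2B-GFP mice, in which the *Pax7* locus drives a doxycycline-dependent activator in MuSCs and the activator switches on a GFP-tagged histone. Mice of both groups had drunk doxycycline at 2.0 mg/mL, with 2% sucrose, for 2 weeks, per the labels. The study's methods give another share of sucrose. One group had sham surgery. The other had 5 days of mechanical overload (MOV), a growth stimulus in which synergist muscles of the plantaris are cut away. The study's methods describe several mice per group and sorting of VCAM+ cells without CD31, CD45 or SCA1, the labels speak of a single mouse and the design text of sorting on GFP. Each group is 1 library, with no replicate, so no test between conditions or cell groups was possible and every interval below is a 95% interval for counting error only.

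Cells that lack an amino acid, or whose endoplasmic reticulum is overloaded, phosphorylate the initiation factor eIF2, which lowers protein synthesis while letting the ribosome reach the coding frame of *Atf4*. The protein ATF4 then switches on genes for amino acid synthesis, amino acid uptake and tRNA charging, and with long stress also *Ddit3*, *Trib3* and *Chac1*. Because ATF4 is set largely by translation, the level of *Atf4* transcripts is no direct reading of its activity. Growing cells use the same enzymes to supply serine, glycine and one-carbon units for nucleotide synthesis.

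ATF4 binds, with C/EBP partners, a composite element whose core is spelled TGATGNAA, where N is any base. This motif was searched on both strands of the RefSeq promoter windows (GRCm38.p6, 250 bases before to 50 after each gene start), and 3.97% of 32851 windows held it. Windows were given for 9 of the 10 genes, not for *Slc7a5*, and those of *Asns*, *Chac1* and *Trib3* held 1 match each. The 3 stretches are shown because these genes were the members with a match, each 30 bases on the strand of its gene with the match in capitals:
Asns, chr6:7693214-7693243, minus strand: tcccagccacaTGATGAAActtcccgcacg
Chac1, chr2:119351038-119351067, plus strand: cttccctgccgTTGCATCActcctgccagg
Trib3, chr2:152344028-152344057, minus strand: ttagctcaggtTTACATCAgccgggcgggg
In *Asns* the match lay at -23 to -16 from the RefSeq start and read along the gene. In *Chac1*, at -193 to -186, and in *Trib3*, at 15 to 22, it was on the opposite strand, so the capitals show its complement. A match of these letters is a description and not a measured binding site, and the windows of the other genes say only that the letters were not in them. The RefSeq windows of *Psat1* and *Slc3a2* lay inside the gene spans of the other annotation used here, so the annotations give these genes different starts. The starts of the genes with a match differ too. In the other annotation *Asns* starts at 7693254, so its match lies inside the gene, and *Trib3* at 152344032, so its match lies before the gene.

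The deposited sham library had 7302661 UMIs in 1100 cells and that of MOV had 88498487 in 3854. A limit of 10% on the mitochondrial share left 738 and 3060 cells. Each was put in a group by UMIs of marker genes. Among MOV MuSCs, 275 were called by the quiescence markers *Chrdl2* or *Chodl* and 86 by high immediate-early genes *Fos* and *Fosb*. The matrix-associated markers *Islr* or *Gpc3* called 185, cell cycle genes called 688, and 378 passed none of these thresholds. Of the cycling cells, 209 had at least 50000 UMIs (deep) and 479 fewer. Another 186 MOV cells were myocytes (*Myog*, *Mymk*, *Mymx*) and 46 were fibre droplets, called by adult myosin. The 405 Pdgfra cells are a mesenchymal class outside the myogenic lineage that a sort without SCA1 would reduce. A further 400 other non-myogenic and 411 unassigned cells entered no comparison. The names rest on the marker rules. The median Pdgfra cell had 135 UMIs of fibroadipogenic markers per 10000, the median deep cycling cell 1.29, the median other cycling cell 2.41 and the median unassigned cell 85.8. Of the summed markers *Cdh15*, *Itga7*, *Sdc4*, *Vcam1* and *Des*, used here for MuSCs, the median MOV fibre droplet had 38.6 per 10000. The median deep cycling cell had 20, and the sum does not show which of these genes gave it. Sham gave 69 quiescence-marker cells, 478 fibre droplets and 27 Pdgfra cells, but only 7 cycling cells and 1 myocyte, so cell states were compared within the MOV library.

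A set of 44 cell barcodes occurred in both libraries, and the shallower copy held 0.348% to 4.32% of the UMIs of the deeper one. In the MOV groups compared they made up 4 of 209 deep cycling cells, 2 of 405 Pdgfra cells, 3 of 378 remaining MuSCs and no other cycling cell, quiescence-marker cell or myocyte. In sham they included 1 of 69 quiescence-marker cells. Without them the log2 ratio of *Asns* in deep against other cycling cells was still 2.23, and the values that moved most are given with the sham comparison.

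*Asns*, on chromosome 6 (7675169 to 7693254, minus strand, GRCm38), encodes asparagine synthetase, which makes asparagine from aspartate and glutamine. Its level, in CPM (its UMIs scaled to 1000000 UMIs of the group), was 34.5 (31.7 to 37.5, 560 UMIs) in deep cycling MuSCs, 31.8 (28.1 to 35.9) in myocytes and 25.2 (22.8 to 27.8) in Pdgfra cells of the MOV library. The first 2 overlapped in their intervals. It was 14.5 (12.2 to 17.1) in remaining MuSCs, then 7.34 (5.98 to 8.92, 101 UMIs) in other cycling, 7.25 (4.89 to 10.3) in matrix, 4.63 (1.86 to 9.53) in immediate-early-high and 3.76 (2.11 to 6.2) in quiescence-marker MuSCs. The intervals of each of these last 4 overlapped that of its neighbour in the order. High *Asns* was therefore found in cycling cells, in differentiating cells and in a class outside the lineage, while the 479 shallower cycling MuSCs were nearer to the quiescence-marker group. Only cycling cells were split by depth in this order, and 67 myocytes and 99 Pdgfra cells also had at least 50000 UMIs. Left out of the order were other non-myogenic cells, at 21.1 CPM (17.8 to 24.8), and unassigned cells, at 18.3 (14.8 to 22.4).

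**Figure D1:**
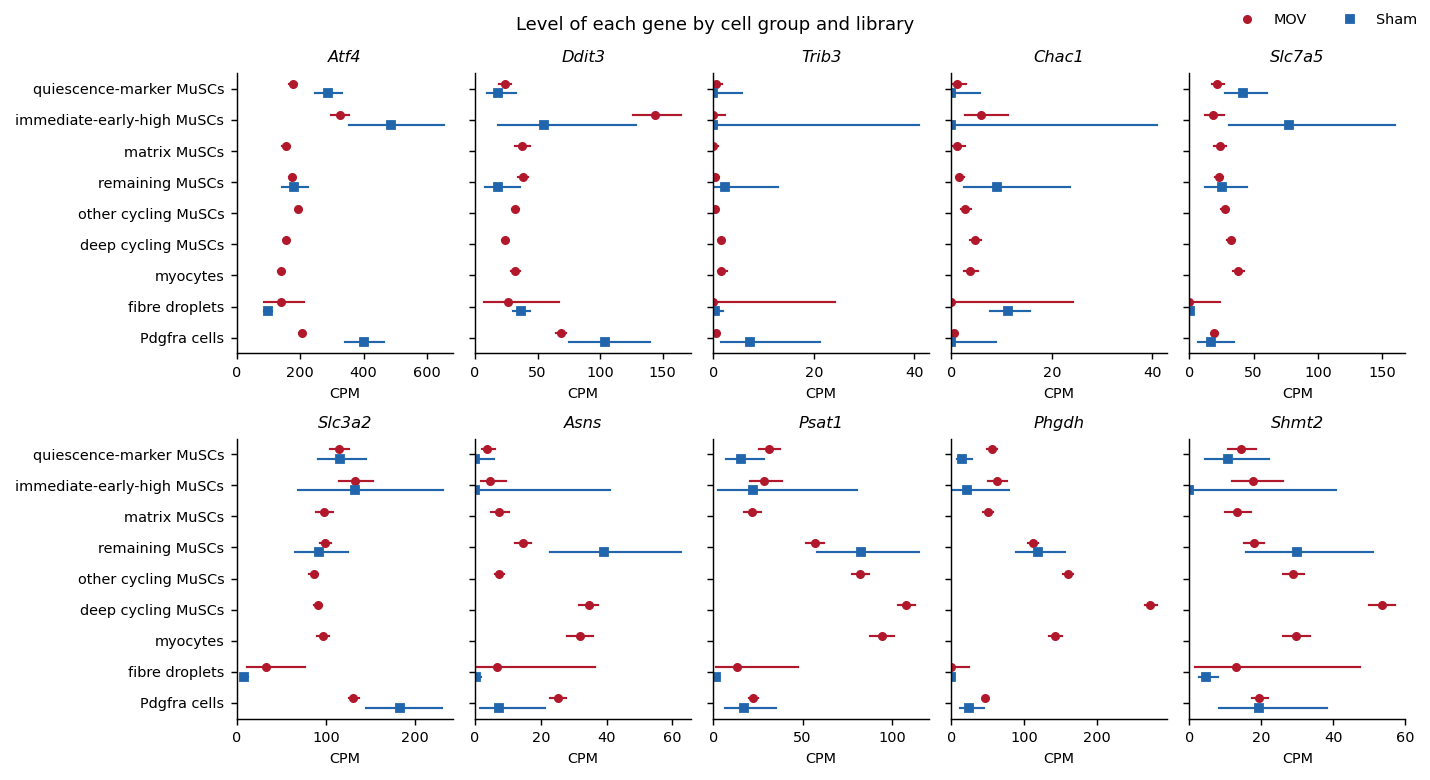
Level of each of the 10 genes (x axis, CPM, linear scale with its own range per gene) in each cell group (y axis) of the MOV (circles) and sham (squares) libraries, with 95% Poisson intervals as bars and groups under 10 cells left out. *Asns* sits at 34.5, 31.8 and 25.2 CPM in deep cycling MuSCs, myocytes and Pdgfra cells, and *Ddit3* at 144 CPM in immediate-early-high MuSCs.

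At least 1 *Asns* UMI was found in 151 of 209 deep cycling cells (72.2%), 188 of 405 Pdgfra cells (46.4%), 81 of 186 myocytes (43.5%) and 58 of 479 other cycling cells (12.1%). Since more UMIs per cell raise such shares, each cell was also thinned to 10000 UMIs. The shares were then 21.5% (exact binomial interval 16.2 to 27.7) of deep cycling, 19% (15.3 to 23.3) of Pdgfra, 18.8% (13.1 to 25.6) of myocytes, 6.37% (4.31 to 9.03) of other cycling and 2.78% (1.03 to 5.95) of quiescence-marker cells. Thinning left out 24 other cycling cells, 59 quiescence-marker cells, 21 myocytes and 11 Pdgfra cells that were shallower. The shares of the first 3 groups overlapped in their intervals. Those of deep and other cycling cells did not, which only describes the difference the genes were chosen by. The intervals treat cells of 1 library as units, and these are not replicates. No captured class is known to lack these genes, so the share that free RNA gives could not be measured in the MOV library. In the sham library, 1 of 89 thinned fibre droplets (1.12%) had an *Asns* UMI. The 46 MOV fibre droplets held 1 *Asns* UMI in all (6.57 CPM, 0.166 to 36.6), too few to set a background. The median depth of all 478 sham fibre droplets was 3784.5 UMIs, against 71556 in deep cycling and 28259 in other cycling cells.

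Across cycling cells, *Asns* was not level on either side of the 50000 UMI limit. It was 2.72 CPM (0.742 to 6.98) in cells under 20000 UMIs, 5.54 from 20000 to 30000, 8.31 from 30000 to 40000 and 10.1 (7.17 to 13.8) from 40000 to 50000. Just inside the limit, from 50000 to 60000, it was 28.2 (22.4 to 35), then 27.9 from 60000 to 80000 and 41.4 (37 to 46.1) above. The intervals of the bins on either side of the limit did not overlap, and 60 of the 688 cycling cells (8.72%) lay within 10% of it. This limit is part of the difference the genes were chosen by, so the gap is a description. Myocytes had a gap at the same depth, 17.4 (10.8 to 26.6) against 39.8 (27.4 to 56, 15 cells). Non-cycling MuSCs had none: 19.9 (14.3 to 27) in cells of 40000 to 50000 UMIs and 19.3 (11.5 to 30.6, 17 cells) in those of 50000 to 60000. In Pdgfra cells *Asns* was 27.6 CPM (18.3 to 39.9) already in cells under 20000 UMIs and 29 (22.5 to 36.7) from 50000 to 60000. Depth and level thus went together in MuSCs and myocytes and less so in Pdgfra cells, and the part that depth itself had in the levels was not tested.

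**Figure D2:**
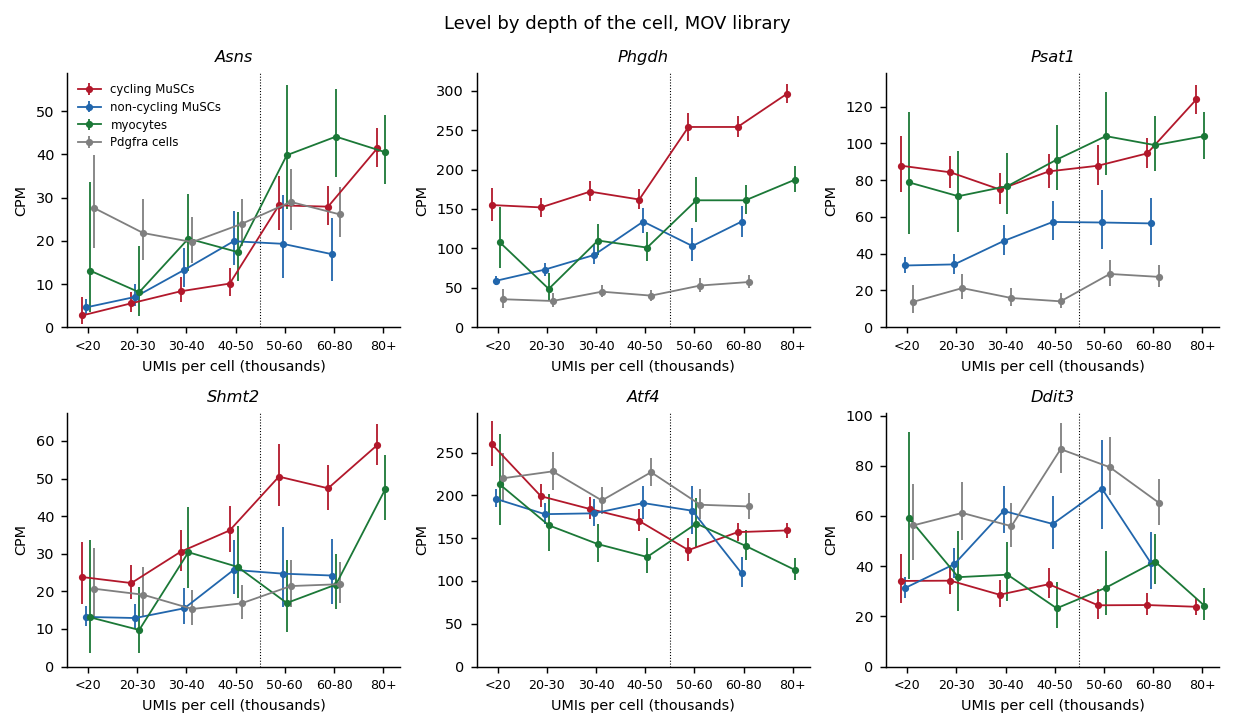
Level of 6 of the genes (y axis, CPM) in MOV cells binned by their total UMIs (x axis, in units of 1000 UMIs), for 4 cell classes in colours, with 95% Poisson intervals, bins under 15 cells left out and a dotted line at 50000 UMIs. In cycling MuSCs *Asns* steps from 10.1 to 28.2 CPM and *Phgdh* from 162 to 254 CPM at the line, while *Atf4* goes from 170 to 136 CPM.

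*Phgdh* (chromosome 3, 98313170 to 98339990), *Psat1* (chromosome 19, 15904678 to 15947337) and *Shmt2* (chromosome 10, 127517123 to 127522444), each on the minus strand, encode enzymes of serine synthesis and its use: phosphoglycerate dehydrogenase, which opens the pathway, phosphoserine aminotransferase, the next step, and mitochondrial serine hydroxymethyltransferase, which turns serine into glycine and a one-carbon unit. *Phgdh* was 274 CPM (266 to 283) in deep cycling, 161 (154 to 168) in other cycling and 143 (135 to 152) in myocytes, against 55.7 (48.6 to 63.5) in quiescence-marker and 47.2 (43.8 to 50.7) in Pdgfra cells. *Psat1* was 108 (103 to 113), 82.1 (77.4 to 87) and 94.1 (87.7 to 101) in the same first 3 groups, and 31.1 and 22.4 in the last 2. *Shmt2* was 53.6 (50.1 to 57.2) in deep cycling, 28.8 (26 to 31.8) in other cycling and 29.7 (26.1 to 33.6) in myocytes. In the quiescence-marker and Pdgfra groups *Shmt2* was 14.3 (10.8 to 18.5) and 19.5 (17.4 to 21.8). Pdgfra cells were thus among the high groups for *Asns* and low for *Phgdh* and *Psat1*.

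With depth, *Phgdh* in cycling cells was 155 CPM (135 to 176) under 20000 UMIs, 162 (150 to 175) from 40000 to 50000, 254 (236 to 272) from 50000 to 60000 and 296 (284 to 308) from 80000. *Shmt2* was 36.2 (30.4 to 42.7) just below the limit and 50.5 (42.7 to 59.3) just above it. *Psat1* had no gap there, 84.8 (75.9 to 94.5) and 87.9 (77.5 to 99.4), and reached 124 (116 to 132) from 80000. In cells thinned to 10000 UMIs, *Phgdh* was found in 90.9% of deep cycling cells (86.2 to 94.4) and 68.6% of other cycling cells (64.1 to 72.8), against 99.5% and 87.1% before thinning.

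The regulators had another pattern. *Atf4* (chromosome 15, 80255184 to 80257541, plus strand) encodes the factor itself. Its level was 154 CPM (148 to 160) in deep cycling cells and 193 (186 to 201) in other cycling cells, and it was 138 (130 to 146) in myocytes, 178 (165 to 191) in quiescence-marker cells and 204 (197 to 211) in Pdgfra cells. *Ddit3* (chromosome 10, 127290774 to 127296288, plus strand) encodes CHOP, a partner of ATF4 in lasting stress. It was 24.2 (21.8 to 26.7) in deep cycling and 32.1 (29.2 to 35.3) in other cycling cells, and 68.5 (64.5 to 72.8) in Pdgfra cells. Over all phases, both regulators were lower in deep than in other cycling cells.

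*Trib3* (chromosome 2, 152337422 to 152344032, minus strand), a pseudokinase that restrains ATF4 signalling, and *Chac1* (chromosome 2, 119351229 to 119354381, plus strand), which degrades glutathione, were sparse. *Trib3* had 24 UMIs in deep cycling cells (1.48 CPM, 0.948 to 2.2), 14 in 6 myocytes (1.66, 0.91 to 2.79), 10 in Pdgfra cells and 5 in other cycling cells (0.363, 0.118 to 0.848). *Chac1* was 4.75 CPM (3.75 to 5.93, 77 UMIs) in deep cycling, 2.83 (2.02 to 3.88, 39 UMIs) in other cycling, 3.8 (2.6 to 5.37) in myocytes and 0.517 (0.223 to 1.02, 8 UMIs) in Pdgfra cells. In deep cycling cells 64.9% of the *Chac1* UMIs came from the 10 cells with most, and in other cycling cells 53.8%. *Chac1* was also found in fibre droplets of the sham library, at 11.2 CPM (7.68 to 15.7, 33 UMIs in 25 droplets).

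*Slc7a5* (chromosome 8, 121881150 to 121907694, minus strand) and *Slc3a2* (chromosome 19, 8706882 to 8723369, minus strand) encode the light and heavy chains of the leucine transporter LAT1. *Slc7a5* ranged from 18.5 (12.3 to 26.7) in immediate-early-high cells to 38.1 CPM (34.1 to 42.6) in myocytes over the MOV MuSC groups and myocytes. It was 32.4 (29.7 to 35.3) in deep and 27.6 (24.8 to 30.5) in other cycling cells. *Slc3a2* ranged over the same groups from 86.3 (81.4 to 91.3) in other cycling to 133 (115 to 153) in immediate-early-high cells. The group with the highest *Slc3a2* had the lowest *Slc7a5*, but in both genes its interval overlapped that of quiescence-marker cells.

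In deep against other cycling cells, the difference the genes were chosen by, the log2 ratio was 2.23 for *Asns* (1.93 to 2.55) and 2.03 for *Trib3* (0.61 to 3.77). *Asns* ranked 72 and *Trib3* 96 from the highest of 12364 genes with at least 20 UMIs over both groups. These 2 of 10 members were at least 2-fold higher, as were 4.33% of all genes, and none was 2-fold lower, as were 8.11%. With 24 against 5 UMIs, *Trib3* reached the minimum only through the deep cells, where 70.8% of its UMIs came from 10 cells. Cycling cells under 20000 UMIs had *Trib3* at 2.04 CPM (0.421 to 5.97, 3 UMIs), so its place in the count and its rank are only a description. *Shmt2* differed by 0.90 (0.72 to 1.07), *Phgdh* by 0.77 (0.70 to 0.84), *Chac1* by 0.74 (0.17 to 1.34), *Psat1* by 0.39 (0.29 to 0.50) and *Slc7a5* by 0.23 (0.04 to 0.43). *Slc3a2*, at 0.08 (-0.03 to 0.20), did not differ beyond counting error. *Atf4*, at -0.33 (-0.41 to -0.25), and *Ddit3*, at -0.41 (-0.61 to -0.21), were lower in deep cells. The median over the 10 genes was 0.57 and over all 12364 genes -0.05.

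Cell cycle phase moved with depth. Cells led by G2/M genes were 190 of 209 deep cells (90.9%) and 389 of 479 other cycling cells (81.2%). Within those, *Asns* was 33.7 CPM (30.8 to 36.8) and 6.09 (4.74 to 7.71), a log2 ratio of 2.47. Within cells led by S phase genes, 19 deep and 90 other, it was 44.2 (33.4 to 57.3, 56 UMIs) and 13.2 (9.03 to 18.6, 32 UMIs), a ratio of 1.74. Phase was called only by which of 2 gene lists, for S or G2/M, had more UMIs in the cell, with ties called G2/M. The part of phase in the *Asns* difference was not tested. *Chac1* was uneven, 19.7 CPM (12.8 to 29.1, 25 UMIs) against 2.48 (0.908 to 5.39, 6 UMIs) in S-led cells and 3.48 (2.6 to 4.56) against 2.91 (2 to 4.09) in G2/M-led cells. *Atf4* in S-led cells was 177 (154 to 201) in deep and 166 (150 to 183) in other cells, so its lower level was seen in G2/M-led cells, at 152 (146 to 159) against 199 (191 to 207), and not in S-led ones. *Ddit3* was likewise 24 (21.6 to 26.6) in deep against 34.8 (31.4 to 38.4) in other G2/M-led cells, but 26 (17.9 to 36.5) against 19.8 (14.6 to 26.3) in S-led cells, with overlapping intervals.

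Cells that hold RNA of 2 cells can also be deep. Of the cells with the highest doublet scores, 7 fell among the deep cycling cells (3.35%) and 17 among the other cycling cells (3.55%). At least 1 *Pdgfra* UMI was found in 15 of 209 deep cycling cells (7.18%) and 15 of 479 others (3.13%). These shares are from cells that were not thinned, and more UMIs per cell raise such shares. Without the high-scoring cells the *Asns* ratio was 2.29. Their number was fixed, at 75 of 3060 MOV cells. Whether the score finds 2 cycling cells under 1 barcode was not tested, so the part of doublets in the difference stays unknown.

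The same split at 50000 UMIs was made in other classes. In non-cycling MuSCs, 39 deep against 885 other cells, *Asns* was 18.3 CPM (13.4 to 24.4) against 8.62, a log2 ratio of 1.09 (0.57 to 1.57), and it was the 1 member of 9 with at least 20 UMIs that was 2-fold higher, beside 5.79% of all genes. None was 2-fold lower, beside 5.44%. The *Asns* ratio was 0.41 in cells thinned to 10000 UMIs. *Phgdh*, *Psat1* and *Shmt2* differed by 0.60 (0.41 to 0.78), 0.59 (0.32 to 0.85) and 0.61 (0.18 to 1.03), and *Atf4* by -0.41 (-0.58 to -0.25). In Pdgfra cells, 99 deep against 306 other cells, *Asns* differed by 0.37 (0.08 to 0.66), *Psat1* by 0.97 (0.65 to 1.29), *Phgdh* by 0.54 (0.33 to 0.75) and *Atf4* by -0.21 (-0.32 to -0.11). None of 8 members there was 2-fold different either way, beside 2.97% of all genes higher and 4.48% lower. Lower *Atf4* and higher *Phgdh*, *Psat1* and *Shmt2* in deep cells were thus not confined to cycling MuSCs. *Ddit3*, lower in deep cycling cells, was not lower in the other classes. It differed by 0.29 (0.01 to 0.56) in non-cycling MuSCs and by 0.01 (-0.17 to 0.19) in Pdgfra cells.

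Set side by side at 50000 UMIs or more, *Asns* was 41.6 CPM (36.2 to 47.6) in 67 myocytes, 34.5 in cycling MuSCs, 29.1 (25 to 33.6) in Pdgfra cells and 18.3 in non-cycling MuSCs. For *Phgdh* the values were 174 (163 to 186), 274, 57.9 (52.1 to 64.1) and 117 (104 to 131). Among deep cells the *Asns* intervals of myocytes and cycling MuSCs overlapped, and the *Phgdh* interval of cycling MuSCs lay above those of the other 3 classes.

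**Figure D3:**
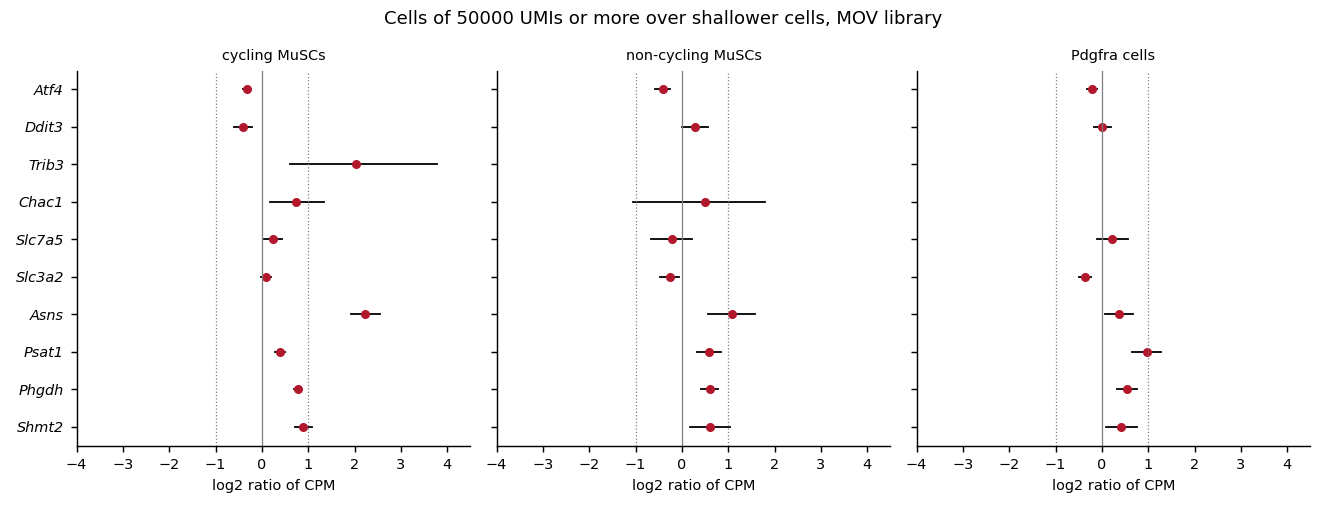
Log2 ratio of CPM (x axis) of cells with at least 50000 UMIs over shallower cells for each gene (y axis) in cycling MuSCs, non-cycling MuSCs and Pdgfra cells of the MOV library, with 95% counting intervals as bars, dotted lines at 2-fold and genes under 20 UMIs left out. *Asns* is at 2.23, 1.09 and 0.37 in the 3 classes and *Atf4* at -0.33, -0.41 and -0.21.

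Cycling cells were compared with quiescence-marker cells without the deep ones. Other cycling cells had higher *Phgdh*, by 1.53 on the log2 scale (1.33 to 1.74), *Psat1*, by 1.40 (1.13 to 1.68), and *Shmt2*, by 1.01 (0.61 to 1.44), than quiescence-marker cells. With *Chac1*, at 1.18 (-0.17 to 2.88, 39 against 5 UMIs), 4 of 9 members with at least 20 UMIs were 2-fold higher, beside 12.9% of all genes, and none was 2-fold lower, beside 5.39%. The median was 0.97 over the 9 members and 0.08 over all genes tested. *Asns* differed by 0.97 (0.18 to 1.85), *Ddit3* by 0.43 (0.11 to 0.77) and *Slc3a2* by -0.42 (-0.58 to -0.26). The directions of *Chac1*, *Ddit3* and *Atf4* did not hold when the marker thresholds were doubled. *Chac1* was then at -0.19. Median depth was 28259 UMIs in the cycling and 13588 in the quiescence-marker cells, and its part in these values was not tested.

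Immediate-early-high MuSCs differed from quiescence-marker cells in the regulators. *Ddit3* was 144 CPM (126 to 165, 218 UMIs) against 23.8 (19.3 to 29.1), a log2 ratio of 2.60 (2.24 to 2.96), and *Atf4* was 324 (296 to 354) against 178, a ratio of 0.87 (0.70 to 1.04). *Ddit3* was the 1 of 8 members that was 2-fold higher, beside 10.7% of all genes, and none was lower, beside 3.14%. *Asns*, *Psat1*, *Phgdh* and *Shmt2* had ratios of 0.30, -0.13, 0.17 and 0.32, and each interval included 0. The *Asns* ratio ran from -1.15 to 2.16 over 11 alternatives, so it was not determined at this depth. The *Ddit3* UMIs were unevenly spread, with 59.6% of them in 10 of the 86 cells and up to 30 in 1 cell. The 17 sham cells of this kind had 5 *Ddit3* UMIs (55.5 CPM, 18 to 129) and 488 CPM of *Atf4* (355 to 655). The median over the 8 genes was 0.25 and over all genes tested 0.09.

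Myocytes differed from other cycling cells by 2.12 in *Asns* (1.78 to 2.46), the 1 of 9 members that was 2-fold higher, beside 9.51% of all genes. None was 2-fold lower, beside 15.3%, and the median was 0.16 over the members and -0.11 over all genes. *Slc7a5* differed by 0.47 (0.25 to 0.69), *Phgdh* by -0.17 (-0.27 to -0.07) and *Atf4* by -0.49 (-0.59 to -0.39). *Trib3* had 14 against 5 UMIs, a ratio of 2.20 (0.64 to 4.02), too few for the count of members. In Pdgfra cells against other cycling cells, *Asns*, at 1.78 (1.46 to 2.11), and *Ddit3*, at 1.09 (0.93 to 1.26), were 2-fold higher, beside 21.5% of all genes. *Psat1*, at -1.88 (-2.05 to -1.70), *Phgdh*, at -1.77 (-1.89 to -1.65), and *Chac1*, at -2.46 (-3.77 to -1.34), were 2-fold lower, beside 14.5%, with medians of -0.49 over 9 members and -0.04 over all genes. The other cycling cells stand in these comparisons and in the one with deep cycling cells, so the ratios are not independent. By rule they hold no cell of 50000 UMIs or more, while 67 of the 186 myocytes and 99 of the 405 Pdgfra cells were that deep. Median depth was 40562 UMIs in myocytes, 36843 in Pdgfra and 28259 in other cycling cells, and its part in these ratios was not tested. From 40000 to 50000 UMIs, *Asns* was 17.4 CPM (10.8 to 26.6) in myocytes, 23.9 (18.9 to 29.6) in Pdgfra and 10.1 (7.17 to 13.8) in cycling cells.

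**Figure D4:**
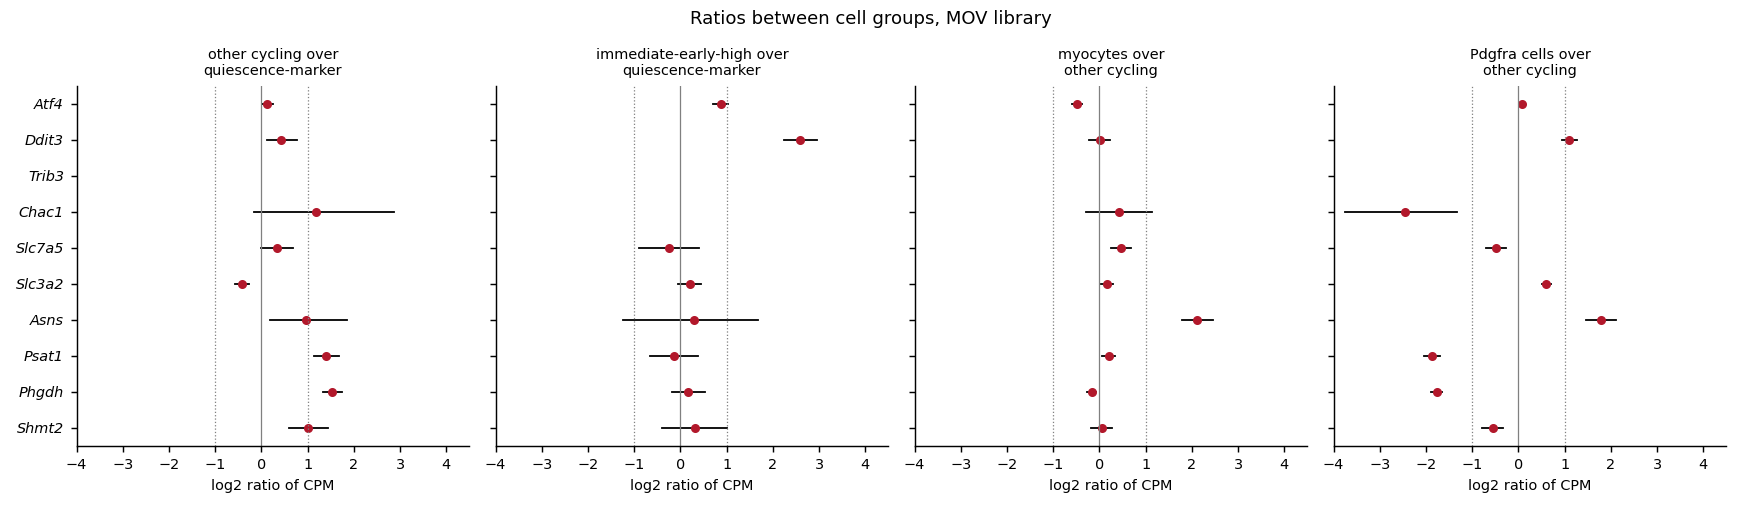
Log2 ratio of CPM (x axis) for each gene (y axis) between pairs of cell groups of the MOV library, the first named over the second, with 95% counting intervals as bars, dotted lines at 2-fold and genes under 20 UMIs left out. *Phgdh* is at 1.53 in other cycling over quiescence-marker cells, *Ddit3* at 2.60 in immediate-early-high over quiescence-marker cells, and *Asns* at 2.12 and 1.78 in myocytes and Pdgfra cells over other cycling cells.

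Between the conditions, the quiescence-marker MuSCs were the MuSC group with enough cells, 275 in MOV and 69 in sham. *Phgdh* was 55.7 CPM (48.6 to 63.5, 222 UMIs) in MOV and 15.5 (7.41 to 28.4, 10 UMIs) in sham, a log2 ratio of 1.85 (0.94 to 2.93), and *Psat1* was 31.1 (25.9 to 37.1) and 15.5 (7.41 to 28.4), a ratio of 1.01 (0.08 to 2.10). These 2 of 7 members with at least 20 UMIs were 2-fold higher, beside 18.2% of all genes. None was 2-fold lower, beside 6.65%, and the median was 0.36 over the members and 0.21 over all genes. *Atf4* was lower in MOV, 178 against 288 (248 to 332), a ratio of -0.70 (-0.93 to -0.46), as was *Slc7a5*, 21.8 (17.5 to 26.9) against 41.7 (27.5 to 60.7), at -0.94 (-1.57 to -0.26). *Slc3a2* was 115 and 116. *Asns* had 0 UMIs in sham, which allows up to 4.64 CPM by a floor of 3 counts, above the 3.76 of MOV, so a difference was not detectable at this depth. Without the shared barcodes *Psat1* was at 1.28, *Phgdh* at 1.95 and *Slc7a5* at -0.88. *Psat1* was under 2-fold with median-of-ratios factors (0.88) and in thinned cells (0.44), and *Slc7a5* was 2-fold lower with those factors (-1.06) and with a mitochondrial limit of 5% (-1.26), so a count of 2 does not always hold the same members. Sham cells were shallower, with a median of 8542 UMIs against 13588, and library and condition cannot be told apart.

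Other sham cells were few. The 27 sham Pdgfra cells had *Asns* at 7.27 CPM (1.5 to 21.3, 3 UMIs), against 25.2 in MOV, and *Atf4* at 400 CPM (341 to 466), against 204. The 3 deep cycling sham cells, 2 of them with a shared barcode, had 8 *Asns* UMIs (36.7 CPM, 15.8 to 72.3), and the 4 other cycling sham cells had 0. In the 17 remaining MuSCs of sham, 6 with a shared barcode, 14 of 17 *Asns* UMIs came from 1 cell.

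Other genes of the response were read from lists chosen with earlier results known. In deep against other cycling cells, none of 20 tRNA synthetases, which charge tRNAs, was 2-fold different, although 19 were above 0, with a median log2 ratio of 0.26. Of all genes tested, 4.33% were 2-fold higher and 8.11% lower, and nothing particular to these short lists is read from their counts. *Vars* was at 0.62 (0.49 to 0.74), *Iars* at 0.49 (0.31 to 0.66) and *Aars* at 0.47 (0.28 to 0.66). Of 9 other ATF4 targets, *Fgf21*, at 1.57 (0.40 to 2.91, 28 against 8 UMIs), and *Stc2*, at 1.07 (0.31 to 1.88), were 2-fold higher, and *Gdf15*, a secreted stress cytokine, was at 0.85 (0.62 to 1.08). Of 11 other amino acid enzymes 3 were 2-fold higher: *Got1*, aspartate aminotransferase, which makes the aspartate that *Asns* uses, at 1.40 (1.21 to 1.60), *Cth* at 1.17 (0.33 to 2.07) and *Bcat1* at 1.05 (0.55 to 1.56). Among the serine and one-carbon genes, *Psph*, the last step of serine synthesis, was 41.1 CPM in deep and 22 CPM in other cycling cells, and *Aldh1l1* was at 0.81 (-0.15 to 1.85).

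Of 12 regulators, 4 were above 0, with a median of -0.43, and 3 were 2-fold lower in deep cycling cells and none higher: *Atf3*, at -1.36 (-1.47 to -1.25), *Ppp1r15a*, which reverses eIF2 phosphorylation, at -1.16 (-1.28 to -1.04), and *Cebpb*, from 531 CPM in other cycling to 247 CPM in deep cycling cells. None of 11 chaperones and sensors of the endoplasmic reticulum was 2-fold different, with 3 above 0 and a median of -0.32, and *Xbp1* was at -0.80, *Dnajb9* at -0.74 and *Hspa5* at -0.73. Among 7 of 9 amino acid transporters with at least 20 UMIs none was 2-fold different, with *Slc7a1* at -0.93, *Slc43a1* at -0.83 and *Slc38a1* at 0.62 (0.44 to 0.79).

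In other cycling against quiescence-marker cells, 6 of 9 serine and one-carbon genes were 2-fold higher, beside 12.9% of all genes higher and 5.39% lower. Among them were *Tyms*, thymidylate synthase, at 2.76 (2.45 to 3.08), and *Shmt1*, cytosolic serine hydroxymethyltransferase, at 2.10 (1.48 to 2.79). *Tyms* is also on the list of S phase genes used to call phase. The cycling group was itself set by cell cycle genes, so the higher *Tyms* is only a description of that group. Of 8 other ATF4 targets, 3 were 2-fold higher and 2 lower. The lower ones were *Ddit4*, at -1.35 (-1.64 to -1.05, 228 against 168 UMIs), and *Vldlr*, at -1.01 (-1.47 to -0.54, 108 against 63 UMIs). *Stc2* was at 2.61 (-0.03 to 7.98, 21 against 1 UMI), *Gdf15* at 2.59 (1.72 to 3.61) and *Sesn2* at 1.72 (0.42 to 3.40). Of 20 tRNA synthetases, *Vars*, at 1.55 (1.22 to 1.90), and *Mars*, at 1.30 (0.83 to 1.81), were 2-fold higher, and *Farsb* was at 0.78. Of 11 other amino acid enzymes, *Got1*, at 1.87 (1.26 to 2.55), and *Bcat1*, at 1.80 (0.35 to 3.73), were higher, and *Glul*, glutamine synthetase, was 2-fold lower, at -1.38 (-1.51 to -1.24). None of 12 regulators was 2-fold different, with *Nupr1* at -0.82, *Eif2ak3* at -0.79 and *Cebpb* at -0.43. Of 11 chaperones and sensors, *Ern1*, at -1.31, and *Dnajb9*, at -1.18, were 2-fold lower and *Atf6* was at -0.85. None of 7 transporters was 2-fold different, with *Slc1a4* at -0.83 (-1.75 to 0.14), *Slc43a1* at 0.18 and *Slc7a11* at -0.11, each interval including 0.

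The genes most like *Asns* over the 11 MOV cell groups of at least 20 cells, by Pearson's r of log2(CPM + 1) among 11098 genes with at least 200 UMIs, were *Dbnl* (0.91), *Preb* (0.91), *Cmtm7* (0.90), *Trappc1* (0.90) and *Gars*, a glycyl-tRNA synthetase (0.89). Their levels varied less than that of *Asns*, for *Dbnl* from 14 CPM in quiescence-marker to 32.4 in deep cycling and 34.2 in myocytes. Of the members, *Trib3* had an r of 0.83 on 73 UMIs, too few to be ranked, *Shmt2* 0.57, *Psat1* 0.41, *Phgdh* 0.38, *Slc7a5* 0.33, *Slc3a2* 0.24, *Chac1* 0.14, *Ddit3* -0.01 and *Atf4* -0.22. The groups come from 1 library, differ in depth and are not replicates.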

How the data were processed

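The authors aligned 10x Genomics 3′ reads to mm10 with Cell Ranger 6.0.0 and deposited filtered matrices of raw UMI counts per gene and cell, with no normalization (1 library each for sham and MOV). Per the labels, R 4.0.2 and Seurat 4.0.2 were used downstream, and no product of that step was used here. The 10 genes, the marker rules and the gene lists were chosen with earlier results of these data known.

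A cell was kept under a mitochondrial share of 10%. In order, cells were called Pdgfra cells (at least 2 *Pdgfra* UMIs and more than *Pax7*, *Myf5*, *Myod1* and *Myog* together), other non-myogenic cells (at least 3 UMIs of immune, endothelial, mural, glial or tendon markers and more than the lineage genes), fibre droplets (adult myosin at least 5 per 10000 UMIs) and myocytes (at least 3 UMIs of *Myog*, *Mymk* and *Mymx*, and 5 per 10000). Fibre droplets also had under 3 UMIs of *Myog*, *Mymk* and *Mymx*. The cells left over needed 1 lineage UMI. They were called cycling (at least 3 UMIs of 8 cell cycle genes, and 5 per 10000), deep from 50000 UMIs, then immediate-early-high (15 per 10000), quiescence-marker or matrix (at least 2 UMIs, and 2 per 10000 for each). Of 1612 MOV MuSCs, 57 (3.54%) lay within 20% of the cycling threshold. Groups are ranges of marker UMIs and not clusters.

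UMIs were summed per group and divided by the group's total (CPM), with exact Poisson 95% intervals. Log2 ratios have exact conditional binomial intervals. No p-value was computed, and intervals and floors cover counting error only, at the UMI totals given. "2-fold" counts use genes with at least 20 UMIs over both groups, and a group at 0 was set to 3 counts. Named were all members, up to 3 genes of each list with the largest absolute ratio in 2 comparisons, and the 5 genes most like *Asns*. *Ddit4* and *Vldlr* were named in addition, as the other ATF4 targets that were 2-fold lower in other cycling than in quiescence-marker cells. Some genes of the serine and one-carbon list are not reported here. Doublets were scored with scanpy 1.11.5 and kept, with their removal at 0.8% per 1000 cells as an alternative. The study's doublet removal was not repeated. Alternatives for scaling used TMM factors from edgeR 4.0.16 and median-of-ratios factors from DESeq2 1.42.0. Python 3.11.15, numpy 2.4.6, scipy 1.17.1, pandas 2.3.3, matplotlib 3.10.9 and R 4.3.3 were used, and the ratio was tested on simulated data. Gene positions are from GENCODE M21 (GRCm38, the build of the files), and promoters from RefSeq.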

Additional observations from a re-analysis of the deposited data

Results flagged for a closer look

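Some levels in MOV cells that entered no comparison lay above the 95% counting interval of sham cells under the same group name. There was 1 library each and no test, and the make-up of these groups differed between the libraries. The median unassigned cell had 85.8 UMIs of fibroadipogenic markers per 10000 in MOV and 0 in sham, and 1.83 and 27.4 of fibre markers. For other non-myogenic cells the fibroadipogenic values were 18.9 in MOV and 78.9 in sham. In other non-myogenic cells, *Asns* was 21.1 CPM (17.8 to 24.8) in MOV and 4.08 in sham (2 UMIs), and *Psat1* was 19.8 CPM (16.6 to 23.4) and 4.08. Only levels above sham were flagged. In the same cells *Atf4* was lower, 240 CPM in MOV and 432 (376 to 495) in sham, as was *Ddit3*, at 70.5 and 102 (75.7 to 134). In unassigned cells, *Slc3a2* was 115 CPM (106 to 125) against 57.4, and *Phgdh* was 52 CPM (45.9 to 58.6) against 5.46 (2 UMIs). In cells removed for their mitochondrial share, *Atf4* was 123 CPM (112 to 136) against 93.3, *Slc3a2* 150 CPM (137 to 164) against 38.2, *Phgdh* 78.3 CPM (69 to 88.4) against 2.68, and *Shmt2* 13.2 CPM (9.62 to 17.8) against 1.34. In the same removed cells, *Slc7a5* was 39.7 CPM (33.2 to 47.1), *Psat1* 27.7 CPM (22.3 to 34) and *Asns* 13.8 CPM (10.1 to 18.5), each with 0 UMIs in sham. Removed sham cells had a median of 98.4% mitochondrial UMIs and those of MOV 67.3%, and CPM is relative to all UMIs of a group.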

How the results depend on the processing

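No paired analysis was possible because the groups share a single replicate number and each is 1 library, and no library could be left out. Of 833 ratios of single members under an alternative, 769 stayed within the main counting interval, 63 moved outside it and 1 that was at least 2-fold changed sign: *Chac1* in other cycling against quiescence-marker cells, from 1.18 to -0.19 with marker thresholds doubled. Smaller ratios changed sign in places: in S-led cells, deep against other, *Ddit3* went from -0.41 to 0.39 and *Atf4* from -0.33 to 0.09, and with thresholds doubled, in other cycling against quiescence-marker cells, *Atf4* was at -0.06 and *Ddit3* at -0.02. *Asns* in deep against other cycling cells ranged from 1.71 (deep from 60000 UMIs) to 2.56 (thresholds doubled) over 15 alternatives. The count of members at least 2-fold different either way stayed within 1.5 times under every alternative run in other cycling against quiescence-marker cells (4) and Pdgfra against other cycling cells (5). It moved elsewhere: with cells thinned to 10000 UMIs it was 1 in place of 2 for deep cycling, 1 in place of 2 for MOV against sham, 0 in place of 1 for deep non-cycling and 1 in place of 0 for deep Pdgfra cells. In the thinned deep cycling comparison *Trib3* was still at 2.12 but fell under the minimum of 20 UMIs. With no UMI minimum it was 2 in place of 1 for myocytes and 2 in place of 1 for immediate-early-high cells. The members so added were *Trib3* in myocytes (14 against 5 UMIs, 2.20) and *Chac1* in immediate-early-high cells (9 against 5 UMIs, 2.25). With thresholds halved it was 2 for myocytes, with thresholds doubled 2 for deep non-cycling cells, with per-cell means 2 for immediate-early-high and 2 for deep non-cycling cells, and with deep from 60000 UMIs 0 for the latter. With TMM factors it was 1 for MOV against sham and 0 for deep non-cycling cells, and with doublets removed 1 for MOV against sham. The cause of the other moves was not tested. TMM moved the median ratio of all genes by -0.171 in immediate-early-high and -0.103 in deep non-cycling comparisons, and median-of-ratios factors by 0.102 in myocytes, -0.118 in immediate-early-high and -0.125 in MOV against sham. With TMM the split of 2-fold higher and lower genes went from 1030 and 301 to 767 and 475 in immediate-early-high cells, and from 692 and 650 to 548 and 790 in deep non-cycling cells. Leaving out the 44 shared barcodes, an alternative chosen after seeing the data, changed no count of members by more than 1.5 times. Under 20 UMIs, as for *Trib3* in most groups, depth limits any ratio.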
